A study of Mus musculus with 34 samples.

Results

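The integrated stress response and the unfolded protein response were followed through 40 mouse genes in 3 cell lines of BRAF-driven colorectal cancer. The genes were fixed by name, matched to the count table through their Ensembl identifiers, and all 40 were present among the 14107 genes tested. They form an ATF4 arm of 20 genes (regulators, amino acid and one-carbon enzymes, and amino acid transporters) and an endoplasmic reticulum (ER) arm of 20 genes (stress sensors, chaperones and folding factors, and components of ER-associated degradation). The 3 lines, called NaJa-D, -F and -G, were each grown from the peritoneal lavage of a different C57BL/6N recipient of the same induced colon organoids, so each line stands for 1 isolate. All of them carry VillinCreERT2, which restricts recombination to intestinal epithelium, together with BrafV600E/+, Trp53R172H and APCdel, and the DMSO controls carry the same alleles. Cells received 0.5 µM encorafenib, which blocks mutant BRAF kinase, or the solvent DMSO for 1 or 5 days, with fresh compound during the longer course. That gives 12 groups and 34 libraries, with 3 libraries per group except for 2 groups of 2 libraries (day 5 encorafenib in NaJa-F, and day 5 DMSO in NaJa-G). The sources do not say that the libraries of a group came from separate cultures, so p-values measure the spread between these samples, which may be technical.

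In the integrated stress response, kinases that sense amino acid shortage, ER stress, haem deficiency or viral RNA phosphorylate the initiation factor eIF2, which slows translation in general while the mRNA of the transcription factor ATF4 is translated more. ATF4 then raises genes for amino acid synthesis, import and redox balance, and, under lasting stress, the factors CHOP (Ddit3), TRIB3 and CHAC1. In the unfolded protein response, the ER membrane proteins IRE1 (Ern1), ATF6 and PERK (Eif2ak3) sense unfolded proteins in the ER. IRE1 splices the Xbp1 mRNA and ATF6 is cleaved to a transcription factor, and both routes raise chaperones and degradation factors, while PERK is one of the eIF2 kinases and links the arms. Secretory epithelia such as the intestine rely on these chaperones. Splicing of Xbp1, cleavage of ATF6 and phosphorylation of eIF2 are not measured by counts per gene, and neither is the protein level of ATF4.

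The libraries held 46007050 to 80121299 counts, and the smallest count of a member in any library was 113, so that all 40 members entered every test without a filter on low values. Colon epithelial markers (8 genes) summed to 5150 to 9099 CPM (counts of a gene scaled by the TMM-adjusted size of the library) in NaJa-D, 4405 to 7381 in NaJa-F and 2574 to 5214 in NaJa-G, while 7 mesenchymal markers summed to 102 to 207, 234 to 557 and 2287 to 3207 CPM. The defining intestinal gene Cdx2 was lowest in NaJa-G (1.14 to 9.88 CPM) and highest in NaJa-F (41.8 to 65.3 CPM). NaJa-D lay between them (12.4 to 24.6 CPM), so Cdx2 did not follow the order of the summed epithelial markers. Epcam, Cdh1, Krt8, Krt18 and Krt19 gave nearly all of those sums. Krt20 and Vil1 were low, with at most 21.7 and 14.0 CPM, both reached by NaJa-D. Outside that line they peaked at 7.30 CPM (Krt20, NaJa-G) and 1.72 CPM (Vil1, NaJa-F). Cd68 and Csf1r, the leukocyte markers in the table, summed to at most 10.2 CPM, and the endothelial marker Kdr stayed at or below 1.36 CPM. The 3 mesothelial markers in the table summed to 1225 to 3520 CPM in NaJa-D, 660.1 to 1176 in NaJa-F and 497 to 1744 in NaJa-G, of which Msln, a gene that many carcinomas express as well, gave nearly all, since Upk3b and Lrrn4 stayed at or below 6.40 and 3.65 CPM. For 1 library, titled as DMSO day 1 replicate 3 of NaJa-D, the cell line field reads NaJa-G, and its title was followed. Its values lay with NaJa-D for the members that differed most between these lines in DMSO, Slc7a11 and Sdf2l1. Slc7a11 had 240.4 CPM in it, against 209 and 235 in replicates 1 and 2 and 469 to 509 in NaJa-G DMSO day 1. Sdf2l1 had 26.1 CPM, against 19.8 and 24.3 and 10.3 to 13.9. The libraries of NaJa-D encorafenib day 1 varied most, with a median SD of 0.17 log2 CPM over the members against 0.03 to 0.12 in the other groups, and counts of called members at day 1 in NaJa-D are also given without replicate 3 of either group.

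Promoters were read from the RefSeq windows of GRCm38.p6, 250 bases before to 50 bases after each transcript start, which held 37 of the 40 members. They were searched on both strands for the C/EBP-ATF response element that ATF4 binds, taken as TGATGNAA, and for the ER stress response element of ATF6 and NF-Y, taken as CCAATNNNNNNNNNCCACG. No member held both motifs, so no matches overlapped. The first was found for 5 of 19 genes of the ATF4 arm (26.3%) and for 1 of 18 of the ER arm (5.56%). It was found for 4.51% of all 27025 genes with a window, and for 2.64% of the 10225 of them in the count table. The second was found for 8 of 18 genes of the ER arm (44.4%) and for 0 of 19 of the ATF4 arm. Its shares of the same 2 sets of genes were 0.137% and 0.147%. Motifs and arms were both chosen for these pathways, so the higher shares are no independent result. The stretches below, of 280 bases that end 30 bases after the start, are shown because Slc7a11 had the lowest fold change of the members in 5 of 6 comparisons and Hspa5 is the main ER chaperone, because Asns, Chac1, Trib3 and Pycr1 share the ATF4 motif with Slc7a11 and yet moved in other ways, and because Hsp90b1 holds the ER motif at 2 places. All are read 5′ to 3′ on the strand of the gene, and capitals mark the motif, which appears as its reverse complement where it lies on the other strand.
Slc7a11: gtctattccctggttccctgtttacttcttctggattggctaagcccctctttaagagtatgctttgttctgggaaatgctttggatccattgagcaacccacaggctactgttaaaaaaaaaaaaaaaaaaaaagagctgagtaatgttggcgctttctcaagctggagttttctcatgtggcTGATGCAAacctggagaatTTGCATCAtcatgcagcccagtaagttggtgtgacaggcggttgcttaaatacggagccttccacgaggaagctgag
Asns: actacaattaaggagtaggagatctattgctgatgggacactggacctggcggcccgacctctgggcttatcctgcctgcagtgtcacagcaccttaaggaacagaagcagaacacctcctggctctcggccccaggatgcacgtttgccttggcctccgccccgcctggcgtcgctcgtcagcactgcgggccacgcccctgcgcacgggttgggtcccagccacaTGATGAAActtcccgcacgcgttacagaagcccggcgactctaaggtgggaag
Chac1: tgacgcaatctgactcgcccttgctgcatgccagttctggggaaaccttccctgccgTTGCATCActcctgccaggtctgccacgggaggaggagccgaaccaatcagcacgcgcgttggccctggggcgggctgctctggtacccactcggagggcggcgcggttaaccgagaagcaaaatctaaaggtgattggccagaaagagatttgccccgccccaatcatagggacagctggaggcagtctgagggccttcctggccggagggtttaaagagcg
Trib3: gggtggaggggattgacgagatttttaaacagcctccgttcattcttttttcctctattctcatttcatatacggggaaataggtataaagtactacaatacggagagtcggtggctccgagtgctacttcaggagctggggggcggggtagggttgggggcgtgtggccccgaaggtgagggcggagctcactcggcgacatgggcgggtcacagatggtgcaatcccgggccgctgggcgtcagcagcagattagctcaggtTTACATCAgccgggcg
Pycr1: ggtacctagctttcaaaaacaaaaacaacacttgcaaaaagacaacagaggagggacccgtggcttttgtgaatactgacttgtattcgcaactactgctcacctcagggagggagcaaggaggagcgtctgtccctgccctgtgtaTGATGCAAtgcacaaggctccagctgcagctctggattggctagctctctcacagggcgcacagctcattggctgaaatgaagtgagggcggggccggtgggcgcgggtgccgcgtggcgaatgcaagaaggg
Hspa5: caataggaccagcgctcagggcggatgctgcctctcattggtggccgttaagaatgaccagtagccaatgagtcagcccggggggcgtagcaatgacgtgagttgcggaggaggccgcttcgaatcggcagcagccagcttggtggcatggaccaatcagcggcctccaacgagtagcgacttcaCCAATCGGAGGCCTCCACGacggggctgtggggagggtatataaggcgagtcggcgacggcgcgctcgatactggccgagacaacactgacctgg
Hsp90b1: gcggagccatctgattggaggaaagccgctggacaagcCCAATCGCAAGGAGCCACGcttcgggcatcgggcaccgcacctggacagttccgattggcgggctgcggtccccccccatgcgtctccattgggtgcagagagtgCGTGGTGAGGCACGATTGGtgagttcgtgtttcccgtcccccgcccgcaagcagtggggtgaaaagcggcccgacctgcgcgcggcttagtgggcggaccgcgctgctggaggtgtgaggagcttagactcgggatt
In GRCm38.p6 they lie at chr3:50443584-50443863 on the minus strand for Slc7a11, chr6:7693180-7693459 (minus) for Asns, chr2:119350992-119351271 (plus) for Chac1, chr2:152344031-152344310 (minus) for Trib3, chr11:120643719-120643998 (minus) for Pycr1, chr2:34771840-34772119 (plus) for Hspa5 and chr10:86705415-86705694 (minus) for Hsp90b1. Slc7a11 had the ATF4 motif at 2 places, with first bases 66 and 47 bases before the start, on opposite strands. In Asns, Pycr1 and Chac1 its first base lay 23, 103 and 193 bases before the start, and in Trib3 it lay at base 15 after it. The Hspa5 match to the ER motif began 65 bases before the start, and the Hsp90b1 matches 212 and 107 bases before it. Calr, Canx, Creld2, Dnajc3, Pdia6 and Syvn1 held the ER motif as well, and Herpud1 was the member of the ER arm with the ATF4 motif.

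The first question was how the genes respond to inhibition of the mutant kinase. At day 1 in NaJa-D, 10 genes of the ATF4 arm and 11 of the ER arm were lower in encorafenib, as were 21.2% of all genes. In NaJa-G 6 of the 8 enzymes and all 3 transporters of the ATF4 arm fell at day 1, where 28.7% of all genes did. Xbp1 and 3 of the 4 ER degradation genes rose there, where 35.3% of all genes did. By day 5 in that line 6 of the 9 regulators of the ATF4 arm were higher, as were 28.5% of all genes. NaJa-F had the fewest calls, and also the fewest over all genes (29.5% at day 1 and 18.2% at day 5). A gene was called at an adjusted p below 0.01 over all 14107 genes (limma after voom weighting), and differences between groups are given throughout as log2 fold changes, in places with their SE. Of the 40 members 38 were called in at least 1 of the 6 comparisons of encorafenib with DMSO, 5 in all of them in the same direction, and 6 were called higher in some and lower in others. Over all 14107 genes the same shares were 83.2%, 8.15% and 6.34%. Slc7a11, Phgdh and Shmt2 were lower in all 6, and Psph and Eif2ak3 were higher in all 6. Cebpb and Syvn1 were called in none. These libraries are bulk RNA, so fewer cells with a transcript and less of it per cell cannot be told apart.

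**Figure D1:**
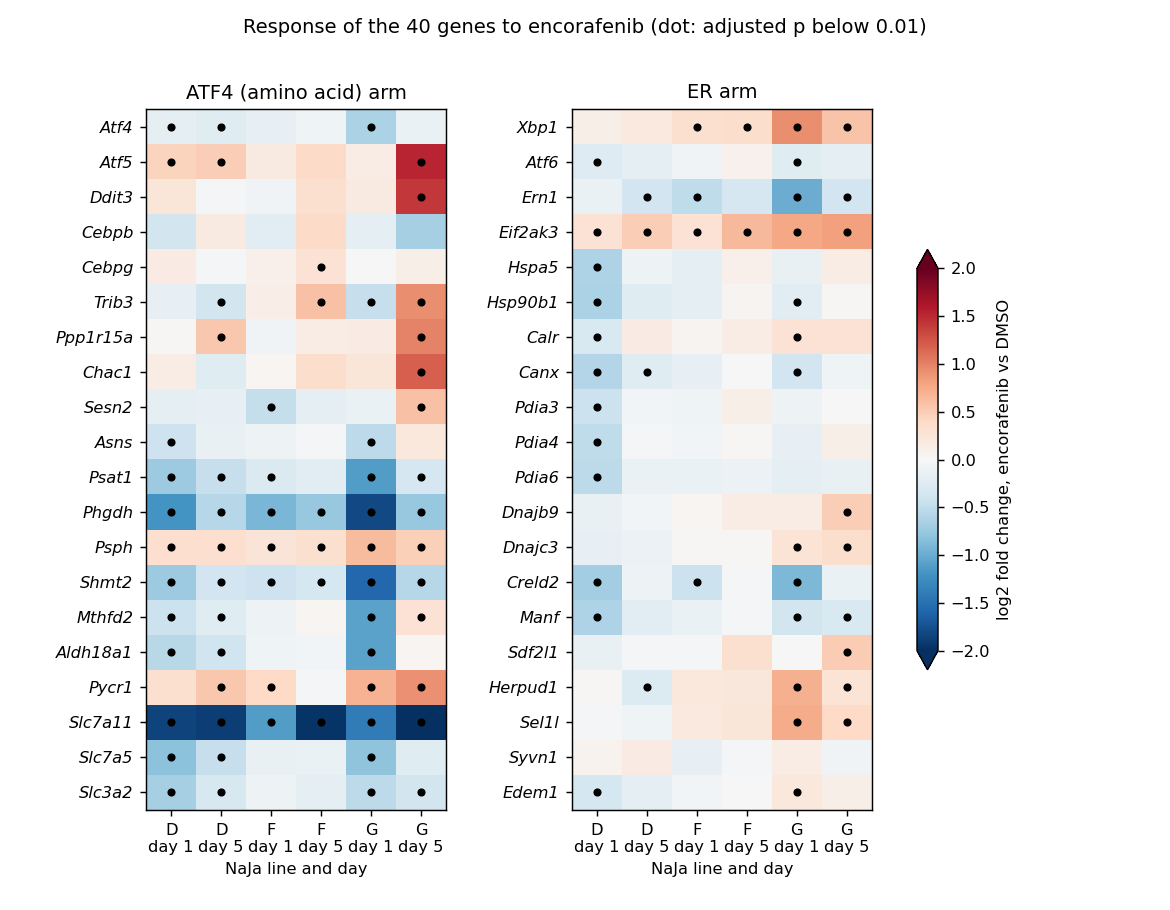
Log2 fold change of encorafenib against DMSO for the 20 genes of the ATF4 arm (left) and the 20 of the ER arm (right), with a column for each line and day. Dots mark genes with an adjusted p below 0.01, and colours stop at 2 in both directions, so that Slc7a11 in NaJa-G at day 5 (-2.60) lies beyond the scale. Slc7a11, Phgdh and Shmt2 were lower and Psph and Eif2ak3 higher in all 6 columns.

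In NaJa-D at day 1, 12 of 20 genes of the ATF4 arm were called (2 higher and 10 lower) and 12 of 20 of the ER arm (1 higher and 11 lower), where 44.9% of all genes (23.7% higher and 21.2% lower) were called. Both arms had a median log2 fold change of -0.28, against 0.04 over all genes. At day 5, 33% of all genes (18.3% higher and 14.7% lower) were called, and the counts were 14 in the ATF4 arm (4 higher and 10 lower, median -0.24) and 4 in the ER arm (1 higher and 3 lower, median -0.11). Without NaJa-D encorafenib day 1 replicate 3 the day 1 counts were 10 and 13, and the medians were -0.47 and -0.41. Without the DMSO library whose cell line field differs they were 11 and 11, with medians of -0.35 and -0.25. Scaling by library size alone in place of TMM put 63.6% of all called genes on the higher side against 52.8%, with 3 higher and 9 lower in the ATF4 arm and the same counts in the ER arm. A fit of these 6 libraries alone called 6 genes of the ER arm. The 4 calls of the ER arm at day 5 depended on single libraries, being 1 without DMSO day 5 replicate 1, 2 without encorafenib day 5 replicate 1 or replicate 2, and 8 without DMSO day 5 replicate 3.

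In NaJa-F at day 1, 7 genes of the ATF4 arm (2 higher and 5 lower, median -0.10) and 4 of the ER arm (2 and 2, median -0.07) were called, where 29.5% of all genes (17.5% higher and 12% lower) were. At day 5 the counts were 6 (3 and 3, median -0.04) and 2 (both higher, median 0.07), where 18.2% of all genes (9.7% higher and 8.5% lower) were called, and the ER count was 1 without encorafenib day 5 replicate 1. In NaJa-G at day 1, where 64% of all genes (35.3% higher and 28.7% lower) were called, 13 genes of the ATF4 arm were called (2 higher and 11 lower, median -0.49) and 13 of the ER arm (7 higher and 6 lower, median -0.04). At day 5, where 53.2% of all genes (28.5% higher and 24.7% lower) were called, 14 genes of the ATF4 arm were called (9 higher and 5 lower, median 0.16) and 9 of the ER arm (7 and 2, median 0.12). The called share of the ATF4 arm thus lay above that of all genes in NaJa-D (60% and 70%). It did so too at day 5 in NaJa-F (30%) and NaJa-G (70%). At day 1 it was nearer to that of all genes in NaJa-F (35%) and NaJa-G (65%). The ER arm share lay above that of all genes in NaJa-D at day 1 (60%) and level with it in NaJa-G at day 1 (65%). In the other 4 comparisons it lay below that of all genes (10% to 45%). With library size scaling the ER arm had 7 genes higher and 9 lower in NaJa-G at day 1, which turned its balance, and 2 and 4 in NaJa-F at day 1, and the ATF4 arm had 9 and 7 in NaJa-G at day 5.

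**Figure D2:**
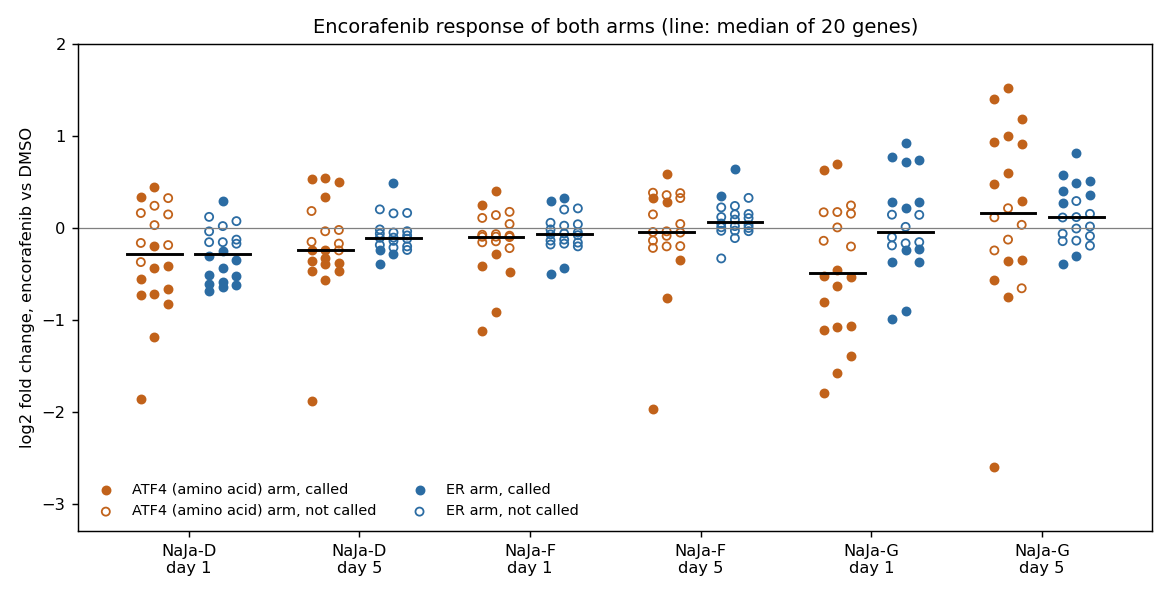
Log2 fold change of encorafenib against DMSO for each member, by arm, line and day, where filled points are called and the line is the median of the 20 genes of an arm. The arms lie together in NaJa-D at day 1 (medians of -0.28), and in NaJa-G at day 1 the median of the ATF4 arm is -0.49 and that of the ER arm -0.04.

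Of the amino acid transporters none was called higher in any comparison, and 1 of them, Slc7a11, had the lowest fold change of all 40 members in 5 of the 6. Slc7a11 (ENSMUSG00000027737, chromosome 3, 49892526 to 50443614, minus strand) encodes xCT, which imports cystine for glutathione synthesis in exchange for glutamate. In NaJa-D it had 209, 235 and 240.4 CPM in DMSO and 57.03, 67.4 and 65.01 CPM in encorafenib at day 1, and 259, 235 and 195 against 64.8, 61.8 and 59.3 CPM at day 5. In NaJa-F the values were 199, 187 and 159 against 85.2, 81.6 and 82.5 CPM at day 1 and 339.7, 345 and 338 against 93.2 and 81.7 CPM at day 5. NaJa-G libraries had 509, 498 and 469 against 184, 194 and 183 CPM at day 1 and 746 and 559 against 103, 110.0 and 108 CPM at day 5. In no line or day did a treated library reach a DMSO library. The log2 fold changes (± SE) were -1.86 ± 0.09 (day 1) and -1.88 ± 0.09 (day 5) for NaJa-D, -1.12 ± 0.09 and -1.97 ± 0.10 for NaJa-F, and -1.39 ± 0.10 and -2.60 ± 0.11 for NaJa-G, with adjusted p from 5.31e-11 (NaJa-F day 1) to 5.76e-18 (NaJa-G day 5). At day 5 in NaJa-G the fitted level in encorafenib was 0.165 of that in DMSO. Without replicate 3 of DMSO or of encorafenib the day 1 value in NaJa-D was -1.85 or -1.91.

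The partner subunit and the leucine transporter moved less. Slc3a2 encodes the heavy chain CD98 that both SLC7A11 and SLC7A5 need at the membrane, and SLC7A5 (LAT1) imports large neutral amino acids. Slc3a2 fell in NaJa-D (-0.66 ± 0.08 and -0.33 ± 0.08) and NaJa-G (-0.52 ± 0.08 and -0.36 ± 0.09), while the values in NaJa-F were -0.10 (adjusted p = 0.358) and -0.20 (adjusted p = 0.103). Slc7a5 fell in NaJa-D at both days (-0.82 ± 0.09 and -0.47 ± 0.09) and in NaJa-G at day 1 (-0.81 ± 0.09). The Slc7a5 difference in NaJa-G at day 5, -0.24, had an adjusted p of 0.0337 and was not called. Thus all 3 transporters were called lower in NaJa-D at both days and in NaJa-G at day 1, and Slc7a11 alone was in NaJa-F. Of all genes 21.2% and 14.7% were lower in NaJa-D at day 1 and day 5, and 28.7% in NaJa-G at day 1. In NaJa-F 12% and 8.5% of all genes were lower.

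The enzymes did not move as a block. Phgdh and Psat1 encode the first and the second enzyme of serine synthesis and Psph the last, and Shmt2 and Mthfd2 encode mitochondrial enzymes that pass the carbon of serine into the folate pool. Phgdh (chromosome 3, 98313170 to 98339990) had 636, 627 and 602 CPM in DMSO and 239, 255 and 331 CPM in encorafenib in NaJa-D at day 1, and 337, 397 and 392 against 247, 247 and 266 CPM at day 5. Its NaJa-F values were 906, 952 and 794 against 465, 474 and 462 CPM at day 1 and 593, 596 and 579 against 331 and 363 CPM at day 5, and its NaJa-G values 1644, 1281 and 1277 against 399, 399.7 and 398 CPM at day 1 and 650.5 and 848 against 473, 442 and 404 CPM at day 5. The groups did not overlap in any line or day. Phgdh changed by -1.19 ± 0.10 (day 1) and -0.57 ± 0.10 (day 5) for NaJa-D, -0.92 ± 0.11 and -0.76 ± 0.11 for NaJa-F, and -1.80 ± 0.11 and -0.76 ± 0.12 for NaJa-G, with adjusted p between 7.91e-15 and 2.9e-05. The controls differed between days as well, since the mean in DMSO went from 1400.5 ± 211 CPM at day 1 to 749 ± 139.8 CPM at day 5 in NaJa-G (SD, n = 3 and 2) and from 622 ± 17.5 to 376 ± 33.4 CPM in NaJa-D (n = 3 each).

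Psat1 fell in 5 of the 6 comparisons, by 0.72 and 0.47 on the log2 scale in NaJa-D, by 0.29 in NaJa-F at day 1 and by 1.11 and 0.34 in NaJa-G, and its value in NaJa-F at day 5 was -0.22 (adjusted p = 0.0614). The last enzyme of the pathway went the other way. Psph had 14.9, 14.4 and 14.3 against 17.9, 17.3 and 20.1 CPM in NaJa-D at day 1 and 13.6, 16.7 and 15.5 against 19.5, 19.1 and 18.7 CPM at day 5. In NaJa-F it had 12.7, 11.5 and 11.3 against 13.6, 14.5 and 14.1 CPM at day 1 and 9.55, 10.7 and 9.78 against 13.1 and 12.03 CPM at day 5, and in NaJa-G 8.09, 7.80 and 8.02 against 12.1, 12.5 and 12.3 CPM at day 1 and 7.53 and 7.69 against 10.8, 10.5 and 10.5 CPM at day 5. Every treated library was above every DMSO library of its line and day, though by small margins in NaJa-F. The changes were 0.34 ± 0.07, 0.34 ± 0.06, 0.25 ± 0.06, 0.33 ± 0.08, 0.63 ± 0.07 and 0.47 ± 0.08 in the same order, with adjusted p of 0.00233 and 0.00184 in NaJa-F. In NaJa-F the day 1 call was lost without DMSO replicate 2 or replicate 3 or encorafenib replicate 2 (adjusted p up to 0.0186), and the day 5 call without DMSO replicate 1 or replicate 3 or encorafenib replicate 1 (adjusted p up to 0.0614). In fits of only the libraries compared, Psph was not called at day 1 in NaJa-D (adjusted p = 0.0201) or at either day in NaJa-F (0.01 and 0.0207). Psph overlaps Cct6a on the other strand, and the sources do not say whether reads were counted by strand. Cct6a itself was lower in NaJa-D at day 1 (-0.44) and in NaJa-G at both days (-0.66 and -0.40).

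Shmt2 had 210.1, 209 and 209.7 CPM in DMSO and 120.4, 122 and 136 CPM in encorafenib in NaJa-D at day 1, and 175, 189 and 188 against 135, 139 and 149.7 CPM at day 5. The same values were 221, 235 and 212 against 167, 168 and 165 CPM at day 1 and 188, 184 and 182 against 138 and 152 CPM at day 5 in NaJa-F, and 259, 218 and 227 against 78.6, 77.7 and 79.01 CPM at day 1 and 146 and 177 against 113, 109 and 104 CPM at day 5 in NaJa-G. All treated libraries were below their controls, and NaJa-G at day 1 had the largest gap. Shmt2 changed by -0.73 ± 0.06 (day 1) and -0.38 ± 0.06 (day 5) for NaJa-D, -0.42 ± 0.07 and -0.35 ± 0.07 for NaJa-F, and -1.58 ± 0.07 and -0.57 ± 0.07 for NaJa-G, with adjusted p from 2.13e-18 to 0.000432. Its call in NaJa-F at day 5 was lost without encorafenib day 5 replicate 1 (adjusted p = 0.0212). Mthfd2 fell in NaJa-D (-0.43 ± 0.07 and -0.24 ± 0.06) and at day 1 in NaJa-G (-1.07 ± 0.06), where it rose at day 5 (0.29 ± 0.07). Its NaJa-G means were 80.002 ± 6.44 CPM in DMSO and 38.1 ± 1.49 CPM in encorafenib at day 1, and 53.5 ± 3.41 and 65.7 ± 2.74 CPM at day 5.

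Aldh18a1 and Pycr1, which encode the first and the last enzyme of proline synthesis from glutamate, also parted. Aldh18a1 fell in NaJa-D (-0.56 ± 0.07 and -0.39 ± 0.07) and in NaJa-G at day 1 (-1.08 ± 0.07). Pycr1 rose in NaJa-D at day 5, from 12.01, 11.04 and 13.9 to 19.3, 17.4 and 17.2 CPM (0.54 ± 0.09, adjusted p = 1.27e-05), and in NaJa-F at day 1, from 12.1, 12.4 and 11.7 to 16.8, 15.6 and 15.4 CPM (0.40 ± 0.09, adjusted p = 0.000427). It rose in NaJa-G at both days as well (0.70 ± 0.09 and 0.91 ± 0.10). In NaJa-D at day 1 the Pycr1 value was 0.32 (adjusted p = 0.0106) and in NaJa-F at day 5 it was -0.04 (adjusted p = 0.797). Asparagine synthetase (Asns), a textbook target of ATF4, had 105, 95.3 and 102 against 70.2, 69.7 and 89.3 CPM in NaJa-D at day 1 and 107, 115 and 117 against 99.1, 104 and 102 CPM at day 5. Its values were 111, 111 and 100.2 against 99.8, 97.8 and 103 CPM at day 1 and 94.6, 99.9 and 96.1 against 97.9 and 90.95 CPM at day 5 in NaJa-F, and 128, 119 and 118 against 83.8, 81.2 and 86.6 CPM at day 1 and 108 and 109 against 135, 119 and 123 CPM at day 5 in NaJa-G. Asns fell at day 1 in NaJa-D (-0.41 ± 0.07, adjusted p = 1.19e-05) and NaJa-G (-0.53 ± 0.07, adjusted p = 7.54e-08), and the NaJa-D call was lost in a fit of its own 6 libraries (adjusted p = 0.0127). In the other 4 comparisons it was not called, and the treated libraries of NaJa-G at day 5 lay above the controls (0.21, adjusted p = 0.0167, or 0.25 and 0.00437 when genes under 2 log2 CPM were left out). By role, 6 of the 8 enzymes were lower and 1 higher in NaJa-D at day 1, 6 lower and 2 higher in NaJa-G at day 1, and 3 lower and 3 higher in NaJa-G at day 5. In the same order, the shares of all genes were 21.2% lower and 23.7% higher, 28.7% and 35.3%, and 24.7% and 28.5%.

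**Figure D3:**
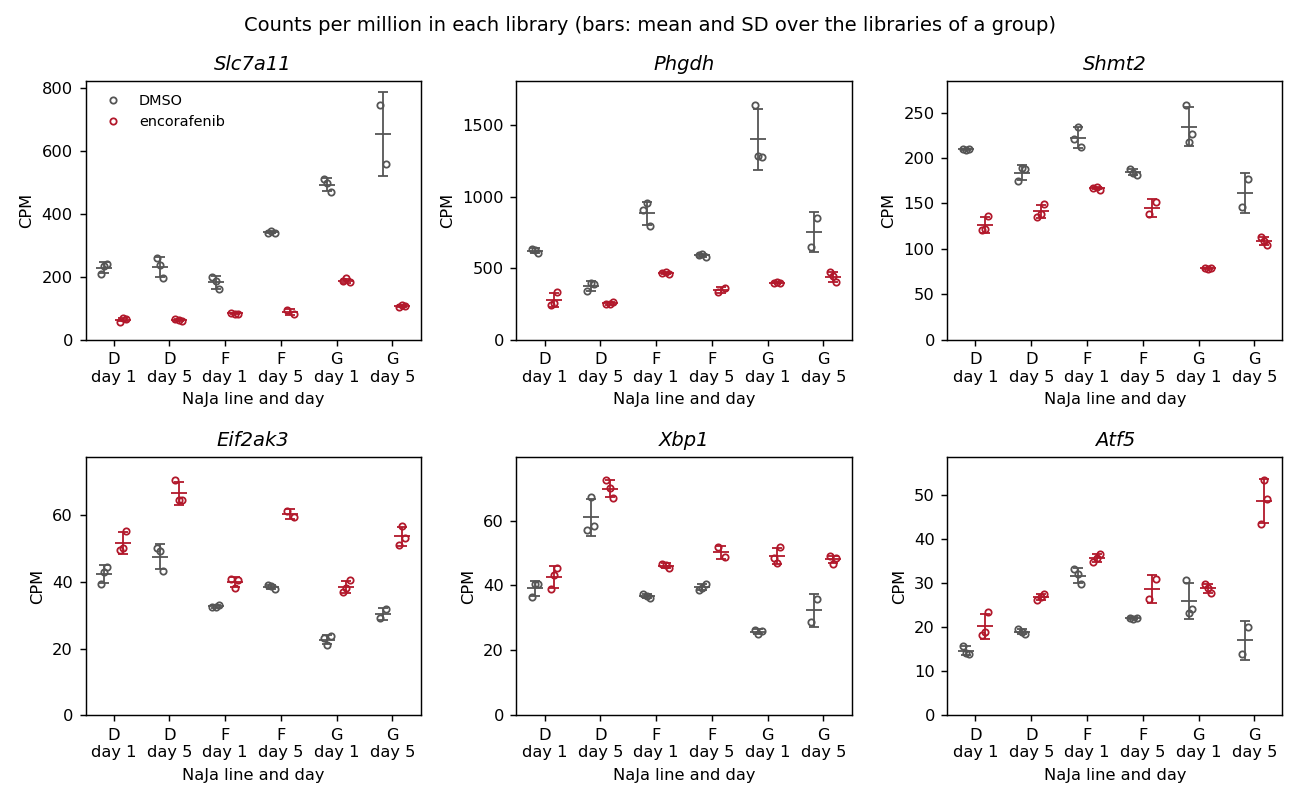
CPM of 6 members in each library, by line and day, with DMSO in grey and encorafenib in red. Points are libraries, and bars give the mean and SD of a group of 3 libraries or, for NaJa-F with encorafenib and NaJa-G with DMSO at day 5, of 2. Slc7a11, Phgdh and Shmt2 were lower in treated libraries of every line and day, Eif2ak3 was higher, and Atf5 reached 48.7 ± 4.94 CPM in NaJa-G encorafenib day 5.

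Among the regulators, the mRNA of Atf4 itself was lower or did not pass the test. Atf4 (ENSMUSG00000042406, chromosome 15, 80255184 to 80257541) had 171, 161 and 158 CPM in DMSO and 149, 147 and 133 CPM in encorafenib in NaJa-D at day 1, and 228, 234 and 242 against 186, 199 and 213 CPM at day 5. NaJa-F had 163, 166 and 189 against 152, 154 and 157 CPM at day 1 and 184, 172 and 176 against 162 and 172 CPM at day 5, and NaJa-G had 175, 185 and 188 against 118, 116 and 119 CPM at day 1 and 154 and 158 against 144, 142 and 143 CPM at day 5. Groups overlapped in NaJa-F at day 5 and in no other comparison. Atf4 fell in NaJa-D (-0.19 ± 0.05, adjusted p = 0.00351, and -0.24 ± 0.06, adjusted p = 0.000889) and in NaJa-G at day 1 (-0.63 ± 0.05, adjusted p = 2.68e-11). The remaining values were -0.16 (adjusted p = 0.0229) and -0.09 (adjusted p = 0.327) in NaJa-F and -0.13 (adjusted p = 0.0705) in NaJa-G at day 5. The NaJa-D day 1 call was lost without DMSO day 1 replicate 1 (adjusted p = 0.0126) or encorafenib day 1 replicate 3 (0.0133), and the day 5 call without encorafenib day 5 replicate 1 (0.014). Both were lost with library size scaling (-0.11, adjusted p = 0.186, and -0.23, adjusted p = 0.0123), and the day 1 call in a fit of its own 6 libraries (adjusted p = 0.0461). DESeq2 called the decrease in NaJa-F at day 1 (adjusted p = 0.00636).

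Atf5, a related factor that is translated under stress, was the member with the highest fold change. It had 15.8, 14.2 and 13.9 against 18.3, 18.9 and 23.4 CPM in NaJa-D at day 1, 19.6, 18.9 and 18.6 against 26.2, 26.9 and 27.6 CPM at day 5, and 13.9 and 20.1 against 43.6, 53.4 and 49.1 CPM in NaJa-G at day 5. All treated libraries were above the controls in these 3 comparisons. Atf5 rose by 0.45 ± 0.12 (adjusted p = 0.00303), 0.50 ± 0.11 (adjusted p = 0.000479) and 1.52 ± 0.12 (adjusted p = 6.23e-12). Its NaJa-D day 1 call was lost without DMSO day 1 replicate 2 or replicate 3, or without encorafenib day 1 replicate 3 (adjusted p up to 0.0368), and in a fit of its own 6 libraries (0.0191). Atf5 overlaps Il4i1 on the other strand, which was also higher in NaJa-G at day 5 (0.63).

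Ddit3 (ENSMUSG00000025408, chromosome 10, 127290774 to 127296288), which encodes the pro-apoptotic factor CHOP, had 6.45, 6.80 and 6.50 against 8.08, 7.82 and 7.39 CPM in NaJa-D at day 1 and 8.17, 7.65 and 7.29 against 7.41, 6.86 and 8.88 CPM at day 5. In NaJa-F the values were 8.76, 8.83 and 9.40 against 9.29, 8.51 and 8.07 CPM at day 1 and 7.40, 6.28 and 7.67 against 8.21 and 9.59 CPM at day 5. NaJa-G had 9.67, 8.56 and 10.2 against 10.9, 10.7 and 10.1 CPM at day 1 and 5.90 and 6.46 against 15.9, 17.2 and 16.3 CPM at day 5. The treated NaJa-G libraries of day 5 were above all others of the series. Ddit3 rose there by 1.41 ± 0.10 (adjusted p = 6.62e-13) and was called in no other comparison, where the values lay between -0.07 and 0.32, though DESeq2 called it in NaJa-F at day 5 (0.33, adjusted p = 0.00979). It overlaps Mars on the other strand, which was not called in NaJa-G at day 5 (-0.03).

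At day 5 in NaJa-G, Ppp1r15a, Trib3, Chac1 and Sesn2 rose beside Atf5 and Ddit3, while Cebpb (-0.66, adjusted p = 0.0146) and Cebpg (0.12, adjusted p = 0.181) were not called. Ppp1r15a (GADD34), which directs a phosphatase to eIF2 and so ends the stress response, rose in NaJa-D at day 5 from 45.7, 50.8 and 50.1 to 66.6, 68.5 and 77.5 CPM (0.53 ± 0.06, adjusted p = 8.37e-08) and in NaJa-G at day 5 (1.00 ± 0.08, means of 27.1 ± 1.04 and 54.3 ± 2.75 CPM). Trib3, a pseudokinase that restrains ATF4, changed in both directions. It fell at day 5 in NaJa-D (-0.36 ± 0.10) and at day 1 in NaJa-G (-0.46 ± 0.15), and it rose in NaJa-F at day 5, from 6.00, 5.55 and 6.07 to 7.87 and 9.77 CPM (0.58 ± 0.13), and in NaJa-G at day 5 (0.93 ± 0.14). The NaJa-F call of Trib3 was lost without encorafenib day 5 replicate 2 (adjusted p = 0.0597). Chac1, which degrades glutathione, rose in NaJa-G at day 5 (1.19 ± 0.14), as did Sesn2 (0.59 ± 0.13), an inhibitor of mTORC1 that had fallen in NaJa-F at day 1 (-0.48 ± 0.11). Cebpg, a partner of ATF4 in dimers, rose in NaJa-F at day 5 alone (0.28 ± 0.08). Cebpb had values between -0.66 and 0.38, the lowest mean count of all members and standard errors of 0.21 to 0.29. Of the 9 regulators 6 were higher and 0 lower in NaJa-G at day 5, where 28.5% of all genes were higher and 24.7% lower. At day 1 in that line 0 were higher and 2 lower, where 35.3% and 28.7% of all genes were. Chac1 in NaJa-G had 5.06 to 6.42 CPM in DMSO at day 1 and 3.13 and 3.67 CPM at day 5. Its encorafenib libraries had 6.32 to 6.96 and 7.51 to 7.95 CPM. Sesn2 had 6.98 to 9.04 CPM in DMSO at day 1 and 4.93 and 7.61 CPM at day 5, against 8.76 to 10.1 CPM in encorafenib at day 5.

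Within the ER arm the sensors moved in opposite directions. Eif2ak3 (PERK, ENSMUSG00000031668, chromosome 6, 70844515 to 70905245) had 39.3, 43.05 and 44.6 CPM in DMSO and 49.4, 50.1 and 55.4 CPM in encorafenib in NaJa-D at day 1, and 50.3, 49.3 and 43.2 against 70.5, 64.5 and 64.6 CPM at day 5. NaJa-F had 32.5, 32.3 and 33.1 against 40.9, 38.3 and 40.6 CPM at day 1 and 39.2, 38.7 and 37.9 against 61.4 and 59.4 CPM at day 5, and NaJa-G 23.1, 21.1 and 23.6 against 36.9, 38.1 and 40.5 CPM at day 1 and 29.1 and 31.7 against 51.2, 56.7 and 53.1 CPM at day 5. Each treated library exceeded each control of its line and day. Eif2ak3 rose by 0.29 ± 0.06 (day 1) and 0.48 ± 0.06 (day 5) for NaJa-D, 0.29 ± 0.06 and 0.65 ± 0.07 for NaJa-F, and 0.77 ± 0.07 and 0.82 ± 0.07 for NaJa-G, with adjusted p from 1.86e-11 to 0.000445. The NaJa-D day 1 call was lost without DMSO day 1 replicate 1 (adjusted p = 0.0141) and in a fit of its own 6 libraries (0.0291). Ern1 (IRE1) fell in NaJa-D at day 5 (-0.39 ± 0.09), in NaJa-F at day 1 (-0.50 ± 0.09) and in NaJa-G at both days (-0.99 ± 0.09 and -0.39 ± 0.10). Atf6 fell at day 1 in NaJa-D (-0.25 ± 0.06) and NaJa-G (-0.23 ± 0.06).

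Xbp1 (ENSMUSG00000020484, chromosome 11, 5520659 to 5525893), the transcription factor whose mRNA IRE1 splices, had 36.4, 40.4 and 40.5 against 38.9, 43.2 and 45.5 CPM in NaJa-D at day 1 and 57.2, 67.4 and 58.2 against 72.4, 69.9 and 67.1 CPM at day 5. The values were 37.5, 36.8 and 36.1 against 46.7, 46.4 and 45.3 CPM at day 1 and 38.7, 39.2 and 40.5 against 51.7 and 48.8 CPM at day 5 in NaJa-F, and 26.3, 24.95 and 26.1 against 48.5, 46.95 and 51.9 CPM at day 1 and 28.7 and 35.9 against 49.01, 46.8 and 48.4 CPM at day 5 in NaJa-G. Groups overlapped at both days in NaJa-D and were apart in NaJa-F and NaJa-G. Total Xbp1 rose in NaJa-F (0.33 ± 0.07, adjusted p = 0.000299, and 0.35 ± 0.08, adjusted p = 0.000751) and NaJa-G (0.93 ± 0.07, adjusted p = 1.45e-12, and 0.58 ± 0.08, adjusted p = 2.28e-07). In NaJa-D the differences were 0.12 (adjusted p = 0.15) and 0.20 (adjusted p = 0.0137, or 0.0018 without DMSO day 5 replicate 2 and 0.00442 with library size scaling). The NaJa-F day 5 call was lost without encorafenib day 5 replicate 1 (adjusted p = 0.0277).

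At day 1 in NaJa-D 9 of the 12 folding factors fell, where 21.2% of all genes did. Hspa5 (BiP, ENSMUSG00000026864, chromosome 2, 34771970 to 34777547), the main Hsp70 chaperone of the ER lumen, had 1282, 1424 and 1579 CPM in DMSO and 817, 915 and 1069 CPM in encorafenib at day 1, and 904, 975 and 820.3 against 812, 823 and 867 CPM at day 5. In NaJa-F it had 922, 917 and 857 against 768, 781 and 797 CPM at day 1 and 712, 719 and 706 against 821 and 717 CPM at day 5, and in NaJa-G 797, 755 and 738 against 667, 662 and 727 CPM at day 1 and 721 and 655 against 734, 791 and 769 CPM at day 5. Hspa5 was called in NaJa-D at day 1 alone (-0.62 ± 0.08, adjusted p = 2.32e-07), and its other values ran from -0.20 to 0.15 with overlap of the groups in NaJa-D and NaJa-F at day 5. With library size scaling its decreases at day 1 in NaJa-F (-0.22, adjusted p = 0.0064) and NaJa-G (-0.21, adjusted p = 0.004) passed the threshold too, the first also in a fit of its own 6 libraries (adjusted p = 0.00553). In NaJa-D the DMSO mean itself was lower at day 5 (899.7 ± 77.5 CPM) than at day 1 (1428 ± 148 CPM). The 12 folding factors had a median of -0.52 at day 1 in this line, and those that fell included the Hsp90 chaperone Hsp90b1 (-0.64), the lectin chaperones Canx (-0.59) and Calr (-0.30, with overlapping groups), the disulfide isomerases Pdia3 (-0.43), Pdia4 (-0.51) and Pdia6 (-0.53), and the secreted factors Creld2 (-0.69) and Manf (-0.61). In an alternative chosen after the data were seen, 8 of the 12 fell (median -0.48) without DMSO day 1 replicate 3 and 10 (median -0.66) without encorafenib day 1 replicate 3. At day 5 Canx was the 1 of 12 that was called (-0.24 ± 0.07), where 33% of all genes were called and 14.7% were lower.

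In NaJa-F the called folding factor was Creld2 at day 1 (-0.43 ± 0.08), and at day 5 none of the 12 was called. Of all genes 29.5% and 18.2% were called in that line at day 1 and day 5. NaJa-G showed calls both ways at day 1, where 28.7% of all genes fell and 35.3% rose. Creld2 (-0.90), Canx (-0.38), Manf (-0.37) and Hsp90b1 (-0.23) fell, while Calr (0.28) and the co-chaperone Dnajc3 (0.28) rose. At day 5 in NaJa-G Dnajb9 (0.49), another co-chaperone of BiP, Dnajc3 (0.36) and Sdf2l1 (0.52) rose and Manf fell (-0.31). Hsp90b1, Pdia3, Pdia6 and Manf overlap other genes of the table, and Manf shares its strand with Rbm15b, so that reads there could belong to either gene.

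The degradation genes differed between the lines. Herpud1, Sel1l and Edem1, which help to select misfolded proteins and pass them to the ubiquitin ligase encoded by Syvn1 (HRD1), rose at day 1 in NaJa-G (0.72 ± 0.07, 0.74 ± 0.07 and 0.22 ± 0.07), and Herpud1 and Sel1l rose at day 5 (0.27 ± 0.08 and 0.40 ± 0.08). Of all genes 35.3% and 28.5% rose in NaJa-G at day 1 and day 5. In NaJa-D, Edem1 fell at day 1 (-0.35 ± 0.07) and Herpud1 at day 5 (-0.28 ± 0.07). In NaJa-F none of the 4 was called, where 29.5% and 18.2% of all genes were. The median over these 4 genes in NaJa-G at day 1 was 0.47, and -0.16 over the 12 folding factors.

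The change between days was tested as the difference of the encorafenib responses, which includes any change of the controls. In NaJa-G 20 of the 40 members differed, where 31.7% of all genes (15.5% more positive and 16.2% more negative) did. The ATF4 arm held 15 of them, 14 with a higher value at day 5 and 1 with a lower one, and its median difference was 0.76. The ER arm held 5 (3 higher and 2 lower, median 0.07), and the median over all genes was 0.02. Trib3 (1.39 ± 0.21, adjusted p = 4.09e-06), Atf5 (1.37 ± 0.16, adjusted p = 4.33e-08), Mthfd2 (1.37 ± 0.10, adjusted p = 3.59e-12) and Ddit3 (1.23 ± 0.13, adjusted p = 7.9e-09) had the largest positive values, while Slc7a11 was the exception (-1.20 ± 0.14, adjusted p = 9.53e-08). In DMSO, Atf5 went from 26.1 ± 4.08 to 17.01 ± 4.34 CPM and in encorafenib from 28.9 ± 0.974 to 48.7 ± 4.94 CPM. In the ER arm Creld2 (0.76), Ern1 (0.60) and Dnajb9 (0.35) were higher at day 5 and Herpud1 (-0.45) and Xbp1 (-0.35) lower.

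**Figure D4:**
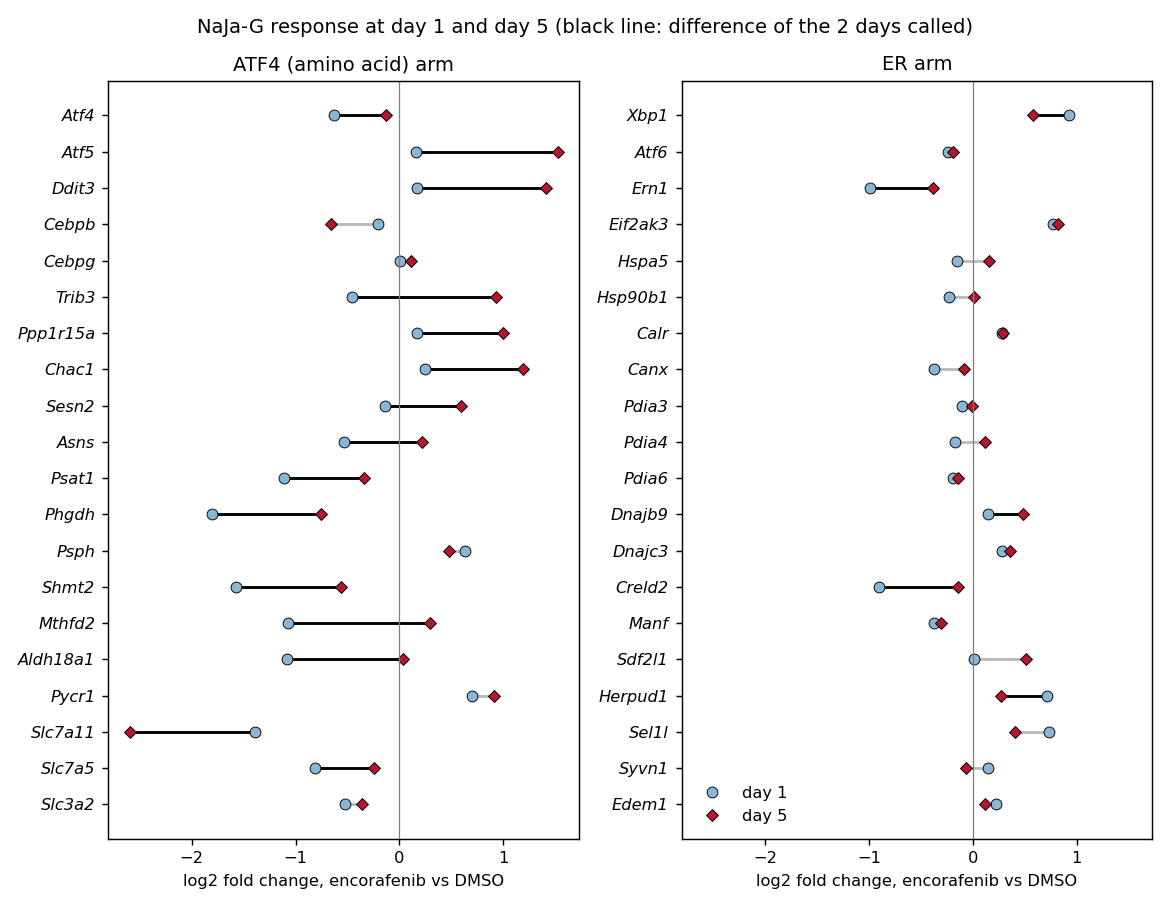
Log2 fold change of encorafenib against DMSO in NaJa-G at day 1 (circles) and day 5 (diamonds) for each member, with the ATF4 arm left and the ER arm right. Black lines join days whose difference was called, which holds for 15 genes of the ATF4 arm and 5 of the ER arm. In the ATF4 arm 14 of the 15 lie further right at day 5, and Slc7a11 lies further left.

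In NaJa-D 6 members differed between days, where 7.29% of all genes (2.76% more positive and 4.54% more negative) did, all with a higher value at day 5 (Phgdh, Creld2, Hspa5, Ppp1r15a, Pdia4 and Shmt2, from 0.62 to 0.35). That count was 18 without encorafenib day 1 replicate 3, and it was 3 without DMSO day 1 replicate 3, 11 without DMSO day 1 replicate 1, 10 without DMSO day 5 replicate 2, 2 without encorafenib day 1 replicate 1 or encorafenib day 5 replicate 3, and 3 without encorafenib day 1 replicate 2 or DMSO day 5 replicate 1. It was 1 in a fit of only the groups compared. In NaJa-F it was Slc7a11 alone (-0.84 ± 0.14, adjusted p = 6.45e-05), where 5.88% of all genes (0.929% more positive and 4.95% more negative) differed, and 2 members without encorafenib day 5 replicate 1. A fit of only the groups compared gave 4 members in NaJa-F. Slc7a11 in NaJa-F had 182 ± 20.2 CPM in DMSO at day 1 and 341 ± 3.43 CPM at day 5, against 83.1 ± 1.85 and 87.5 ± 8.16 CPM in encorafenib (n = 2 in the last group).

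Between lines at day 1, NaJa-G responses differed by arm, against NaJa-D in both arms and against NaJa-F mainly in the ATF4 arm. Against NaJa-D, 19 members responded differently (36.4% of all genes, 20.2% more positive and 16.2% more negative), of which 11 of the ER arm were more positive in NaJa-G and 1 more negative, and 6 of the ATF4 arm were more negative and 1 more positive. Xbp1 (0.81 ± 0.10), Sel1l (0.77) and Herpud1 (0.70) led the first group, Ern1 was its exception (-0.86 ± 0.13), and Shmt2 (-0.84) and Mthfd2 (-0.64) led the second, with Slc7a11 as its exception (0.46). The count was 24 without NaJa-D encorafenib day 1 replicate 3 and 17 without NaJa-D DMSO day 1 replicate 3. It was 11 in a fit of only the groups compared. With library size scaling 40.2% of all called genes were more positive against 55.5%, and 8 and 2 genes of the ER arm and 0 and 6 of the ATF4 arm were more positive and more negative. Against NaJa-F 16 differed (33.5% of all genes, 19.2% more positive and 14.3% more negative), 9 of the ATF4 arm more negative and 1 more positive, and 4 and 2 of the ER arm more positive and more negative. The medians there were -0.35 (ATF4 arm) and 0.04 (ER arm), against 0.07 over all genes. NaJa-F and NaJa-D differed in 10 members (8.79% of all genes, 4.49% more positive and 4.3% more negative), all more positive in NaJa-F, with 5 in either arm, or 5 and 3 with library size scaling, where 34.7% of all called genes were more positive against 51%. This count was 22 without NaJa-D encorafenib day 1 replicate 3, 5 without NaJa-D DMSO day 1 replicate 3, 4 without NaJa-D encorafenib day 1 replicate 1, and 6 without NaJa-D encorafenib day 1 replicate 2, NaJa-F DMSO day 1 replicate 3 or NaJa-F encorafenib day 1 replicate 2 or replicate 3. A fit of only the groups compared gave 1.

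At day 5, 16 members responded differently in NaJa-G and NaJa-D (21.9% of all genes, 14.1% more positive and 7.82% more negative), 15 of them more positive in NaJa-G, led by Chac1 (1.43 ± 0.17), Ddit3 (1.43 ± 0.14) and Trib3 (1.29 ± 0.18), and Slc7a11 was more negative (-0.72 ± 0.14). The count was 10 without NaJa-G DMSO day 5 replicate 1, and library size scaling left these counts as they were while 51.4% of all called genes were more positive against 64.3%. Between NaJa-G and NaJa-F 8 differed (24.2% of all genes, 16.2% more positive and 7.95% more negative), 7 of them more positive in NaJa-G, from Atf5 (1.14) and Ddit3 (1.08) to Dnajb9 (0.34). NaJa-F and NaJa-D differed in 5 (8.85% of all genes, 4.08% more positive and 4.77% more negative), with Trib3 (0.94), Chac1 (0.60) and Herpud1 (0.50) more positive and Pycr1 (-0.58) and Ppp1r15a (-0.39) more negative in NaJa-F. This count was 1 without NaJa-F encorafenib day 5 replicate 2, 2 without NaJa-D DMSO day 5 replicate 1, and 3 without replicate 1 of NaJa-D encorafenib, NaJa-F encorafenib or NaJa-F DMSO day 5 or replicate 2 of the last. The differences share the libraries of a line with each other and are not independent.

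Without inhibitor, the ER arm was highest in NaJa-D. Over the DMSO libraries of both days, NaJa-F had 18 of its 20 genes lower than NaJa-D did and 0 higher, where 61.6% of all genes (32.6% higher and 29% lower) were called. In NaJa-G 16 were lower than in NaJa-D and 1 higher (Ern1), where 67.4% of all genes (33.3% higher and 34.1% lower) were called. The medians were -0.41 and -0.49, and for NaJa-G the median was -0.62 at day 1 alone (17 lower) and -0.30 at day 5 alone (12 lower and 1 higher). Scaling by library size alone, which moved the median of all genes by 0.12 in both comparisons, gave 15 and 14 genes called lower, 0 and 1 higher and medians of -0.29 and -0.37, with 66.5% and 59.9% of all called genes higher against 52.9% and 49.4%. Without NaJa-D DMSO day 1 replicate 3 the ER arm had 17 and 16 calls and the ATF4 arm 11 and 12. The folding factors had 11 of 12 lower in either comparison, among them Pdia3 (-0.74 ± 0.05 in NaJa-F and -0.77 ± 0.06 in NaJa-G), Canx (-0.74 and -0.61) and Hspa5 (-0.50 and -0.64). NaJa-G and NaJa-F differed from each other in 11 genes of the ER arm, 6 higher and 5 lower in NaJa-G, where 54.4% of all genes (25.2% higher and 29.2% lower) were called. The lines also differ in the epithelial, mesenchymal and mesothelial markers given above, and the part of this in the ER arm was not tested.

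Sdf2l1, a component of ER chaperone complexes, had the largest difference of the ER arm between NaJa-G and NaJa-D. Its DMSO libraries had 19.8, 24.3 and 26.1 CPM at day 1 and 27.4, 25.8 and 20.7 CPM at day 5 in NaJa-D, 18.1, 18.8 and 17.1 CPM at day 1 and 16.97, 15.5 and 15.98 CPM at day 5 in NaJa-F, and 13.9, 11.1 and 10.3 CPM at day 1 and 8.91 and 10.9 CPM at day 5 in NaJa-G. All NaJa-G libraries lay below all libraries of the other lines. Sdf2l1 was lower than in NaJa-D both in NaJa-G (-1.14 ± 0.10, adjusted p = 1.31e-11) and in NaJa-F (-0.48 ± 0.08, adjusted p = 1.04e-05).

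**Figure D5:**
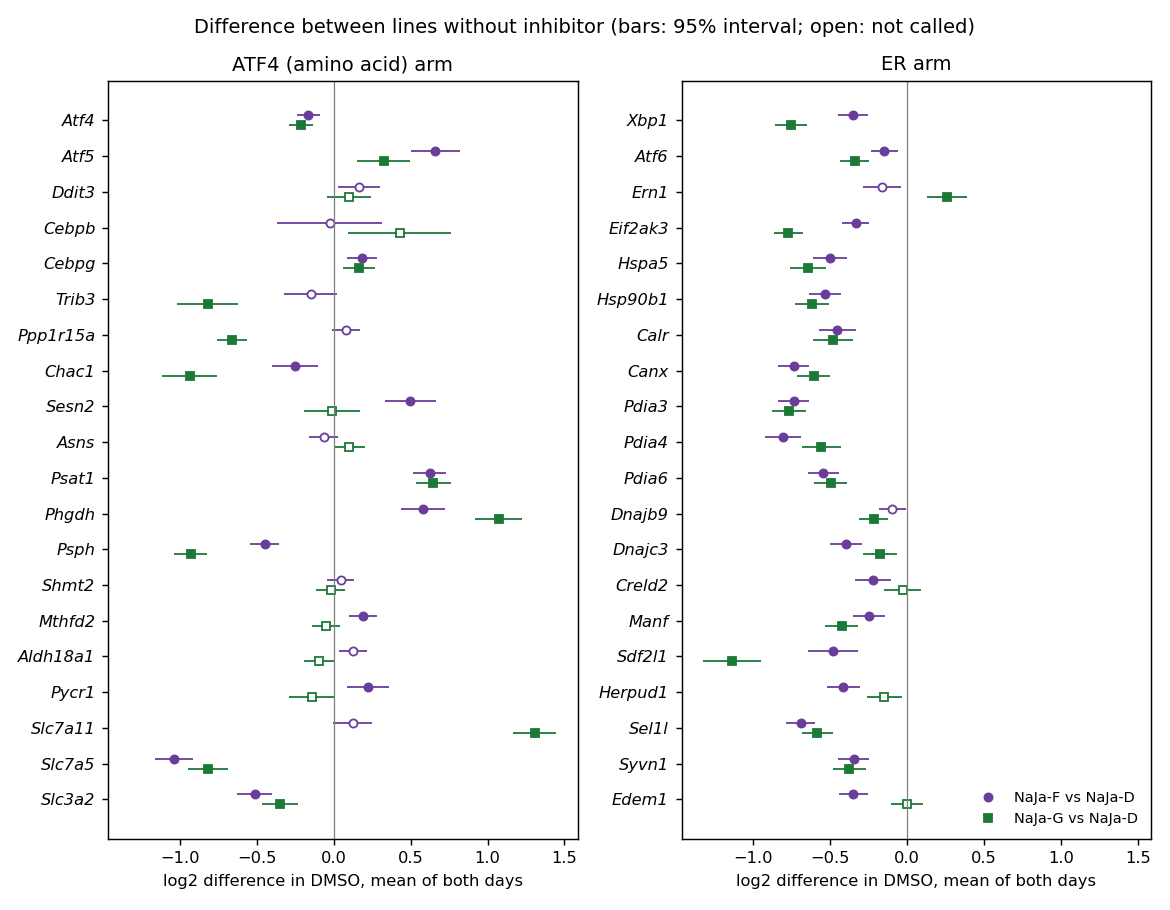
Log2 difference of NaJa-F (circles) and NaJa-G (squares) from NaJa-D in DMSO, as the mean of both days, with 95% intervals of the fit and open symbols for genes that were not called. In the ER arm (right) 18 and 16 of 20 genes were lower than in NaJa-D, and in the ATF4 arm (left) 5 and 7 of 20 were lower and 7 and 5 higher.

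The ATF4 arm was split between the lines. In NaJa-F 7 of its genes were higher and 5 lower than in NaJa-D (median 0.10), and in NaJa-G 5 were higher and 7 lower (median -0.03), against medians over all genes of 0.02 and 0.01. With library size scaling the counts were 12 higher and 3 lower in NaJa-F and 7 higher and 6 lower in NaJa-G, with medians of 0.22 and 0.09, and at day 5 alone the medians were -0.01 and -0.32, so the direction of the arm as a whole depended on the scaling and the day. NaJa-G had 4 genes higher and 9 lower than NaJa-F (median -0.07). Serine synthesis again parted, since Phgdh was higher in both lines than in NaJa-D (0.58 ± 0.07 and 1.07 ± 0.08), as was Psat1 (0.62 ± 0.05 and 0.65 ± 0.06), and Psph was lower (-0.45 ± 0.05 and -0.93 ± 0.05). Slc7a11, whose libraries are given above, was higher in NaJa-G than in both other lines, by 1.31 ± 0.07 (NaJa-D, adjusted p = 8.43e-16) and by 1.18 ± 0.07 (NaJa-F, adjusted p = 1.67e-14), with every NaJa-G DMSO library above every one of the other lines.

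Slc7a5 was the member most reduced in NaJa-F. The DMSO libraries of NaJa-D had 808, 954 and 920.4 CPM at day 1 and 743, 735 and 628 CPM at day 5, against 449, 461 and 389 CPM and 343, 355 and 333 CPM in NaJa-F (-1.04 ± 0.06, adjusted p = 1.79e-14), with no overlap. Atf5 was the most raised there, with 33.2, 32.2 and 29.9 CPM at day 1 and 22.1, 21.8 and 22.2 CPM at day 5 in NaJa-F against 15.8, 14.2 and 13.9 CPM and 19.6, 18.9 and 18.6 CPM in NaJa-D (0.66 ± 0.08, adjusted p = 3.28e-08), a difference that was 0.21 at day 5 alone (adjusted p = 0.107). Ppp1r15a had the lowest value of NaJa-G against NaJa-F, with 43.3, 36.1 and 36.7 CPM at day 1 and 26.4 and 27.9 CPM at day 5 against 54.8, 59.2 and 56.2 CPM and 51.9, 50.97 and 51.5 CPM (-0.74 ± 0.05, adjusted p = 1.49e-13). In both latter pairs the libraries of the lines did not overlap. As a mean of both days Trib3 (-0.82 ± 0.10) and Chac1 (-0.94 ± 0.09) were lower in NaJa-G than NaJa-D. At day 5 alone the differences were -1.46 ± 0.14 and -1.76 ± 0.14 (adjusted p = 4.25e-10 and 3.84e-12), and at day 1 alone they were -0.17 and -0.12 and not called (adjusted p = 0.3 and 0.39). In NaJa-F both genes were higher than in NaJa-D at day 1 (0.55 ± 0.14 and 0.43 ± 0.11) and lower at day 5 (-0.85 ± 0.11 and -0.93 ± 0.10).

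Time in culture changed members in the controls too. In DMSO, 17 members differed between day 5 and day 1 in NaJa-D (6 higher and 11 lower), where 29% of all genes (13.7% higher and 15.3% lower) did, 14 in NaJa-F (3 and 11, where 16.7% did, 9.73% higher and 7.01% lower) and 20 in NaJa-G (8 and 12, where 34.1% did, 17.2% higher and 16.8% lower). In NaJa-D chaperones fell, with Hspa5 at -0.67 ± 0.08, Calr at -0.68 ± 0.09 and Pdia4 at -0.65 ± 0.09, and the stress regulators Trib3 (1.26 ± 0.13), Chac1 (0.91 ± 0.11) and Atf4 (0.52 ± 0.05) rose. Regulators went the other way in NaJa-G, where Chac1 (-0.73 ± 0.14), Atf5 (-0.62 ± 0.12), Ddit3 (-0.60 ± 0.10) and Atf4 (-0.22 ± 0.06) fell, 10 genes of the ATF4 arm fell in all and 7 of the ER arm rose. In NaJa-F 9 genes of the ATF4 arm fell and Slc7a11 rose (0.91 ± 0.09). Phgdh fell in all 3 lines (-0.73, -0.58 and -0.91). Leaving out DMSO day 1 replicate 1 or 2 gave 9 or 7 members in NaJa-F. A fit of only the groups compared gave 5 members in NaJa-G. Library size scaling shifted the median gene of NaJa-D by 0.18, and with it the ATF4 arm in NaJa-D had 12 genes higher and 1 lower against 4 and 3 with TMM scaling, and the ER arm 4 and 7 against 2 and 8 (median 0.02 against -0.16), while 81.7% of all called genes were higher against 47.4%. In NaJa-F and NaJa-G it had 1 higher and 8 lower and 1 higher and 9 lower in the ATF4 arm, and 2 and 2 and 8 and 2 in the ER arm, with 78.6% and 62.4% of all called genes higher against 58.1% and 50.6%. Without NaJa-D DMSO day 1 replicate 3 the NaJa-D count was 13. Each day 5 response above is set against day 5 controls of its own.

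Levels of the members can be compared with each other per length of exon. In NaJa-D DMSO day 1 (SD, n = 3), the ER folding factors were the most abundant, with 597 ± 65.5 CPM per kb for Pdia3, 588 ± 65.04 for Calr, 374 ± 40.6 for Canx and 338 ± 35.1 for Hspa5. Phgdh (250.1 ± 7.03 CPM per kb) and Slc7a5 (241 ± 20.6) led the ATF4 arm. At the low end lay stress regulators and Pycr1, with 1.84 ± 0.194 CPM per kb for Sesn2, 1.99 ± 0.213 for Cebpb, 2.08 ± 0.0722 for Trib3 and 2.31 ± 0.180 for Pycr1. Neighbours in this order such as Pdia3 and Calr, Hspa5 and Canx, or Sesn2 and Cebpb, differed by no more than 1 SD. In NaJa-G DMSO day 1 Phgdh (563 ± 84.8 CPM per kb) stood above Calr (376 ± 34.1) and Pdia3 (298 ± 7.67).

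More genes of both pathways were counted from wider lists. Of 43 further genes around ATF4, 42 were in the table, and of 41 further ER genes 40 were. The ATF4 list had 28 genes called in NaJa-D at day 1 (7 higher and 21 lower, median -0.20; 66.7% against 44.9% of all genes) and 31 in NaJa-G at day 1 (10 and 21, median -0.24; 73.8% against 64%). At day 5 it had 14 (3 and 11, 33.3% against 33%) and 25 (9 and 16, 59.5% against 53.2%). In NaJa-F 14 (7 and 7, 33.3% against 29.5%) and 12 (7 and 5, 28.6% against 18.2%) were called. Among its 12 aminoacyl-tRNA synthetases, which charge tRNAs with amino acids, 7 were lower and 0 higher in NaJa-D at day 1, and 7 lower and 1 higher in NaJa-G at day 1. Of all genes 21.2% and 28.7% were lower there, and 23.7% and 35.3% higher. At day 5 in NaJa-G 3 synthetases were higher and 1 lower, where 28.5% and 24.7% of all genes were. Its 5 amino acid transporters were called lower without exception in NaJa-D at day 5, where 14.7% of all genes were. The ER list had 23 genes called in NaJa-D at day 1 (5 higher and 18 lower, median -0.18), which is 57.5% and above the share of all genes. The 23 called in NaJa-G at day 1 (10 and 13, median 0.01), the 8 and 17 in these lines at day 5 (20% and 42.5%) and the 7 and 4 in NaJa-F (17.5% and 10%) were below it. Without DMSO day 1 replicate 3 the NaJa-D day 1 counts of these lists were 25 and 22, and without encorafenib day 1 replicate 3 they were 34 and 31. Of the 13 folding genes of the ER list 10 were lower and 0 higher in NaJa-D at day 1, and 8 lower and 0 higher in NaJa-G at day 1. In DMSO 12 were lower in NaJa-F than in NaJa-D. The shares of all genes that were lower were 21.2%, 28.7% and 29% in the same order.

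By mean response, Stc2, Shmt1 and Mthfd1l were the lowest of these wider lists, and Creb3l1, Creb3 and Jdp2 the highest. Stc2, which encodes stanniocalcin 2, was lower in all 6 comparisons, with a mean of -1.16, as were the folate enzymes Mthfd1l (mean -0.86) and Shmt1 (mean -0.84). Creb3, an ER-bound transcription factor, was higher in all 6 (mean 1.12), as was the bZIP factor Jdp2 (mean 0.87). Creb3l1 was called higher in 3 of 6 but averaged -1.68 log2 CPM over all libraries, so its fold changes rest on few counts.

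Genes with the ATF4 motif had unlike responses. Among the 5 genes of the ATF4 arm with the ATF4 motif in the stretches printed above, the response in NaJa-G at day 5 was -2.60 for Slc7a11, 0.21 for Asns (not called), 0.91 for Pycr1, 0.93 for Trib3 and 1.19 for Chac1. At day 1 in NaJa-D the same genes had -1.86, -0.41, 0.32, -0.16 and 0.15. The first and the second were called, where 44.9% of all genes were. Of the 8 genes of the ER arm with the ER motif, Calr, Canx, Creld2, Hsp90b1, Hspa5 and Pdia6 were lower in NaJa-D at day 1 and Dnajc3 (-0.17) and Syvn1 (0.07) were not called. Of the whole ER arm 11 of 20 genes were lower there, as were 21.2% of all genes. In DMSO, against NaJa-D, all 8 were lower in NaJa-F and 7 in NaJa-G, with Creld2 at -0.03 (adjusted p = 0.689). The whole arm had 18 and 16 of 20 lower, against 29% and 34.1% of all genes. A match is a run of letters and does not show that a factor was bound there.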

How the data were processed

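RNA of NaJa-D, NaJa-F and NaJa-G cells was sequenced in 34 libraries of 12 groups. Per the labels, reads were trimmed with Trimmomatic 0.39 and aligned with STAR 2.5.2b to GRCm38/mm10. The authors deposited whole-number counts per Ensembl gene for 14107 genes, a list they had already filtered on low counts. The counter, annotation and strand setting are not given in the sources used here. Symbols, coordinates and exon lengths came from GENCODE M21 (14064 identifiers matched, 43 did not).

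Counts were scaled by TMM (factors of 0.876 to 1.07), weighted with voom and fitted with limma 3.58.1 in R 4.3.3 with a mean for each of 12 groups. The study's methods name limma, TMM and the threshold used here, an adjusted p below 0.01, but not voom. In all 21 contrasts tests were two-sided and p-values were adjusted by the method of Benjamini and Hochberg over all 14107 genes. CPM are counts scaled by the TMM-adjusted library size, and CPM per kb were divided by the length of merged exons. Differences between lines in DMSO are means of both days. A response difference is a contrast of 2 log2 fold changes. With 46007050 to 80121299 counts per library, precision was set by the spread between libraries, whose counts differed by more than sampling noise in every pair (chi-square per gene of 3.32 to 86.6), so none was counted as a duplicate.

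The 40 members and the wider lists were chosen with earlier results of these data known. Values of every library were given for Atf4, Ddit3, Asns, Xbp1 and Hspa5, for the members called alike in all 6 encorafenib comparisons, for the 2 highest and 2 lowest called members of each such comparison, and for the highest and lowest of each comparison of lines. From the wider lists, the 3 genes with the lowest and the 3 with the highest mean response were named. Promoter windows came from RefSeq (GRCm38.p6), and Slc7a5, Atf6 and Manf had none there. Alternatives were edgeR 4.0.16, DESeq2 1.42.0, other scalings, a filter, other thresholds, a replicate block, smaller fits and the omission of each library. The fits were tested on simulated counts.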

Additional observations from a re-analysis of the deposited data

Results flagged for a closer look

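Each of the 9 contrasts of responses between lines or between days held members that passed the test of the difference itself. At day 1, the responses of NaJa-F and NaJa-D differed for 10 members, with Slc7a11 at 0.73 (NaJa-F minus NaJa-D) as the largest and Pdia6 at 0.39 as the smallest difference. Between NaJa-G and NaJa-D 19 did so, from Ern1 at -0.86 to Xbp1 at 0.81, and between NaJa-G and NaJa-F 16, from Shmt2 at -1.16 to Xbp1 at 0.60. Of all genes 8.79%, 36.4% and 33.5% did, in that order. At day 5 the numbers were 5 for NaJa-F against NaJa-D (Pycr1 at -0.58 to Trib3 at 0.94), 16 for NaJa-G against NaJa-D (Slc7a11 at -0.72 to Chac1 at 1.43) and 8 for NaJa-G against NaJa-F (Slc7a11 at -0.63 to Atf5 at 1.14). The shares of all genes were 8.85%, 21.9% and 24.2% in the same order. Between days (day 5 minus day 1), 6 members differed in NaJa-D (Shmt2 at 0.35 to Phgdh at 0.62), 1 in NaJa-F (Slc7a11 at -0.84) and 20 in NaJa-G (Slc7a11 at -1.20 to Trib3 at 1.39). Among all genes 7.29%, 5.88% and 31.7% differed between days in these lines. Groups of 2 or 3 libraries are too small for a test of single outlying samples.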

How the results depend on the processing

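Under the alternatives, 455 counts of called members stayed within 1.5 times the reported count and 82 did not. Among values of named genes 1029 kept direction and call, 3 reversed, 26 were no longer called and 8 were newly called. The reversals were of genes that were not called, Ddit3 in NaJa-D at day 5 (0.03 without DMSO day 5 replicate 1 and 0.072 without encorafenib day 5 replicate 2, in a range of -0.12 to 0.072) and Hspa5 in NaJa-F at day 5 (-0.0013 without encorafenib day 5 replicate 1, in a range of -0.0013 to 0.19). The causes of the changes below were not tested, other than by the smaller number of libraries or genes that an alternative uses. The share of all genes called was not taken for these alternatives, so the counts below are not set against it.

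Leaving out single libraries moved the NaJa-D day 1 medians between -0.47 and -0.25 (ATF4 arm) and -0.41 and -0.20 (ER arm), and the ER counts between 1 and 8 in NaJa-D and 1 and 2 in NaJa-F at day 5. The change with time in NaJa-F DMSO had 7 to 12 members. For NaJa-F minus NaJa-D the counts were 4 to 22 at day 1 (medians of 0.12 to 0.36 and 0.18 to 0.35 in the ATF4 and ER arms) and 1 to 6 at day 5, and for NaJa-G minus NaJa-D 10 to 17 at day 5, with a median of 0.24 to 0.48 in the ER arm at day 1. Day 5 minus day 1 gave 2 to 18 in NaJa-D (0.11 to 0.29 and 0.11 to 0.28) and 1 to 2 in NaJa-F. A group left with 1 library was taken to vary like the others.

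With a fold change of at least 2 required (1 on the log2 scale), the ATF4 and ER arms had 2 and 0 calls in NaJa-D at day 1, 1 and 0 at day 5, 1 and 0 in NaJa-F at either day, 6 and 0 in NaJa-G at day 1 and 4 and 0 at day 5, and 1 and 0, 2 and 1, and 1 and 0 between lines (F and D, G and D, G and F). Time in DMSO then had 1 call in NaJa-D and 0 in the other lines, and response differences 0, 0 and 1 at day 1, 0, 4 and 2 at day 5 (same order of lines) and 0, 0 and 8 between days. With an adjusted p below 0.05 the ER arm had 9 calls in NaJa-D at day 5 and 7 and 4 in NaJa-F, and the response differences 18 and 10 for NaJa-F minus NaJa-D and 13 and 4 between days in NaJa-D and NaJa-F. Fits of only the groups compared gave 6 ER calls in NaJa-D at day 1, 7 and 4 in NaJa-F, 5 changes with time in NaJa-G, and 1 (NaJa-F minus NaJa-D, day 1), 11 (NaJa-G minus NaJa-D, day 1), 1 and 4 (between days, NaJa-D and NaJa-F) response differences. Between days, DESeq2 gave 12 and 2 members in NaJa-D and NaJa-F, the filter on low genes 10 and 2, and library size scaling 3 in NaJa-F. Library size scaling gave DMSO medians of 0.22 and -0.29 (ATF4 and ER arms, NaJa-F against NaJa-D) and 0.087 and -0.37 (NaJa-G against NaJa-D). At day 1 alone these were 0.27 (ATF4 arm, NaJa-F) and 0.16 and -0.62 (both arms, NaJa-G), with 7 and 7 calls between NaJa-G and NaJa-F, and at day 5 alone -0.0095 for the ATF4 arm in NaJa-F, -0.32 and -0.30 in NaJa-G, and -0.20 for the ATF4 arm between NaJa-G and NaJa-F.

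Libraries with the same replicate number had correlations of deviations of -0.16 to 0.21. Groups of 2 or 3 libraries are too small for these to decide whether libraries were paired. With the replicate number as a block, NaJa-D at day 1 had 12 and 12 calls and the ER arm at day 5 had 3, and no count moved by over 1.5 times. edgeR and RLE scaling moved no count that far either. Cebpb, Trib3 and Chac1 had the fewest counts, with at least 113, 140 and 187 in a library. Libraries of a group also differed for Cebpb, with 3.14 and 7.14 CPM in NaJa-F encorafenib day 5.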
